A study of Mus musculus with 8 samples.

Results

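The 56 genes described here encode the machinery that copies DNA in S phase, together with the cyclins E and the E2F factors that switch it on. They were taken by symbol and role, with earlier results of these data known, and no measured value entered the rule. The roles are origin recognition and licensing factors, the MCM helicase and its activators, DNA polymerases and primase, the sliding clamp and lagging-strand factors, nucleotide synthesis, chromatin factors of the replication fork, and cyclin E and E2F control. All 56 were present among the 53170 named genes of the count table, and all 56 were among the 14058 genes that passed the filter on low counts. RNA was sequenced from organoids derived from mouse hindstomach epithelium at embryonic day 18.5 and kept for 5 days in growth medium. The 4 control libraries have the genotype Shh-Cre, and the 4 YAP5SA libraries have the genotype Shh-Cre;YAP5SA, so both groups carry the recombinase and no library without it was analysed here. Shh-Cre is active where Shh is expressed, which includes the epithelium of the embryonic gut. YAP5SA is a form of the Hippo pathway coactivator YAP in which serines that the Hippo kinases phosphorylate are mutated. The labels do not say whether libraries of a group were grown from different embryos or in different cultures. The p-values therefore reflect no more than the variation among these 8 libraries, and part of that variation may be technical.

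Replication is licensed in G1, when the origin recognition complex, Cdc6 and Cdt1 load the MCM2-7 ring onto DNA. At the onset of S phase the kinases Cdc7 and cyclin E/Cdk2 allow Cdc45 and the GINS complex to join MCM2-7, which turns the ring into an active helicase, and polymerases alpha, delta and epsilon then copy the strands with help from the clamp PCNA. Many of these genes are classical targets of E2F transcription factors, which the retinoblastoma proteins restrain, and YAP is known as a promoter of proliferation in many epithelia.

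Because E2F binding sites are a known feature of this gene class, RefSeq promoter windows (GRCm38.p6, 250 bases before to 50 bases after a transcript start) were searched for the 4 words TTTCCCGC, TTTCGCGC, TTTGCCGC and TTTGGCGC on both strands, with overlapping matches kept. Windows were found for 47 of the 56 genes, 57 windows in all. The sequences below show this element in promoters of 6 of them, from the helicase, the polymerases, a chromatin factor and the E2F family itself. They read 5′ to 3′ on the strand of the gene, with the words in capitals, and were limited to stretches that overlap no annotated exon.
Mcm5 (chr8:75109320-75109407, plus strand): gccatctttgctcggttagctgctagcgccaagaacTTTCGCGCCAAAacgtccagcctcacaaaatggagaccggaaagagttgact
Mcm6 (chr1:128359706-128359792, minus strand): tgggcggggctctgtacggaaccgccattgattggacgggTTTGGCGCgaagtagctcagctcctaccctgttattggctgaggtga
Pola1 (chrX:93632246-93632333, minus strand): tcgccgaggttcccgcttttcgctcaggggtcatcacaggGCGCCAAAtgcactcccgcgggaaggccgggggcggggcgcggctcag
Uhrf1 (chr17:56304088-56304175, plus strand): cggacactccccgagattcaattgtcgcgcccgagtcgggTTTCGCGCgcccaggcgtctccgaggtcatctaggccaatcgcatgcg
E2f3 (chr13:29986064-29986114, minus strand): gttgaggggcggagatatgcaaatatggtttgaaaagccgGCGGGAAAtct
E2f7 (chr10:110745201-110745288, plus strand): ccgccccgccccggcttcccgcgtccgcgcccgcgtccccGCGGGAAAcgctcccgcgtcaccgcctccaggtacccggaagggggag
In Mcm5 a pair of overlapping words on opposite strands forms 1 run of capitals. Of these 6 genes, Mcm5, Uhrf1 and E2f7 rose in YAP5SA, while Mcm6, Pola1 and E2f3 did not pass the test, as described below.

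An E2F word stood in 20 of the 57 promoter windows (35.1%), against 744 of all 32851 windows of the same length (2.26%) and 4.29% of windows with at least 60% G and C. Among the replication genes the word was present in 8 of 31 windows of genes that rose (25.8%), in 2 of 5 windows of genes that fell (40%) and in 10 of 21 windows of genes that did not pass the test (47.6%). The share was lowest in the windows of genes that rose, and these shares were not tested against each other. CCAAT, the box known to bind NF-Y, was found in 57.9% of the windows of the replication genes, in 37.4% of all windows and in 31.6% of those with at least 60% G and C. TTTGAA, the core of the CHR element known from promoters of mitotic genes, was found in 17.5%, 17.9% and 5.79%. The median G and C content was 62.3% in the windows of the replication genes and 52.7% in all windows. In 26 windows of the G2/M genes listed further below these shares were 3.85% for the E2F words, 80.8% for CCAAT and 73.1% for TTTGAA. These matches are letters in a window and were not tested as sites.

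**Figure D1:**
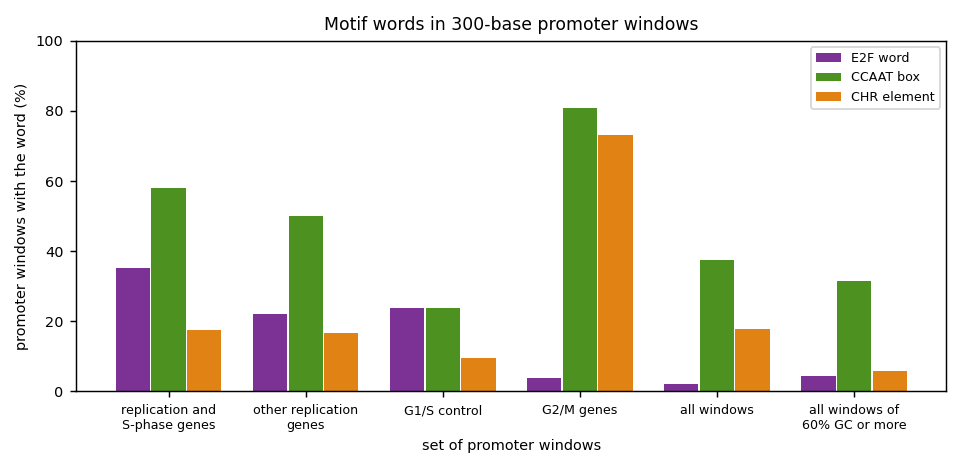
Percent of RefSeq promoter windows of 300 bases (y axis) that hold an E2F word (purple), CCAAT (green) or the CHR letters TTTGAA (orange), for the replication and S-phase genes, 3 other gene lists, all windows and the windows of at least 60% G and C (x axis). The purple bar is at 35.1% for the replication genes and at 2.26% for all windows, and the orange bar is at 73.1% for the G2/M genes.

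Replication genes were on the whole modestly higher in YAP5SA organoids. In the whole-table test (edgeR, adjusted p under 0.05), 31 of the 56 genes rose, 4 fell (Pold3, Ccne1, Orc3 and Orc2) and 21 did not pass. Of all 14058 tested genes, 23.6% were called higher, 25.5% lower and 49.1% in either direction, so the share of replication genes called higher was above the background and the share called lower was below it. The median log2 fold change of the 56 genes was 0.24, and that of all tested genes was 0.00. The groups did not overlap for 32 of the 56 genes, 30 of them higher in every YAP5SA library than in every control and 2 lower, while 45.7% of all tested genes showed no overlap.

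The differences were small in size. No replication gene changed by 2-fold or more, which 13.8% of all tested genes did, and only Cdt1, Tk1 and E2f1 rose by at least 1.5-fold, against 9.7% of all tested genes. The log2 fold changes of the 56 genes ran from -0.88 (Pold3) to 0.68 (E2f1). For each of the 21 genes that did not pass the test, the 95% interval of the log2 fold change lay within 1.5-fold in either direction. That bound is wider than all but 3 of the called rises, so it does not show that the 21 genes were unchanged. Some intervals, such as those of Rpa2 (-0.01 to 0.40) and Gins3 (-0.07 to 0.51), included the median of the 56 genes, 0.24. Others, such as that of Mcm6 (-0.08 to 0.12), did not. The first principal component of the 56 genes held 72.1% of their variance and placed the 4 controls between -1.89 and -0.81 and the 4 YAP5SA libraries between 1.12 and 1.34.

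**Figure D2:**
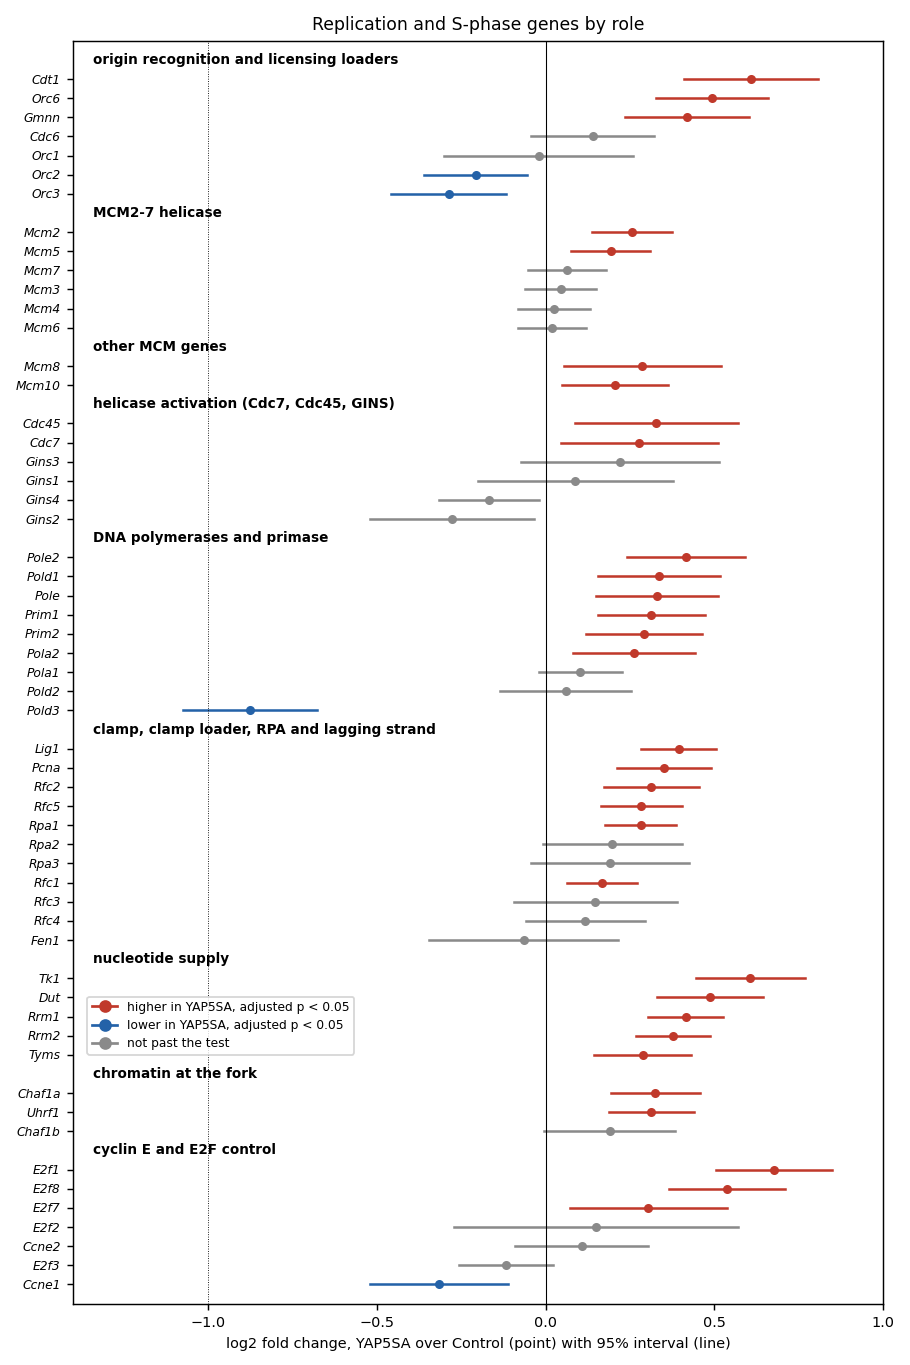
Log2 fold change of YAP5SA over Control (x axis) for the 56 replication and S-phase genes (y axis) grouped by role, as points with 95% intervals from the edgeR fit. Red marks genes called higher, blue genes called lower and grey genes that did not pass. Every gene of the nucleotide supply group is red, Pold3 lies farthest to the left at -0.88, and E2f1 lies farthest to the right at 0.68.

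Levels and depth differed between libraries as follows. Total counts ran from 13672268 in control 4 to 19710648 in control 3, and mitochondrial genes took 4.38% to 5.18% of them. Levels are given as CPM, which put the counts of all libraries on a common scale by TMM factors. Control 4, the shallowest library, had the lowest level of its group for 36 of the 56 genes, and YAP5SA 3 for 25 of the 56. Summed over the 56 genes, the controls held 2821 to 3130 CPM, with control 4 the lowest, and the YAP5SA libraries 3436 to 3566 CPM, so the groups did not overlap in the sum. Without control 4, 27 genes were called higher and 5 lower, and the median log2 fold change was 0.19. Summed CPM of 11 gastric epithelial markers was 2225 to 2343 in the controls and 89.5 to 98.6 in YAP5SA, with 9 of the 11 genes lower and Sox2 higher. Summed CPM of 7 general epithelial markers was 7785 to 8360 in the controls and 6433 to 6667 in YAP5SA, with 4 of the 7 lower and Epcam higher. The tissue label is thus met by general epithelial genes in both groups, and by the gastric markers mainly in the controls. The part of these marker differences in the results for the replication genes was not tested. Markers of mesenchyme (1.80 to 4.36 against 0.607 to 1.71 CPM in sum over 9 genes), of endothelium (6.57 to 13.8 against 1.29 to 2.83 over 5), of immune cells (19.6 to 39.1 against 9.66 to 10.4 over 6), of enteric nerve (5.68 to 10.1 against 3.04 to 4.01 over 5) and of erythroid cells (0.255 to 0.675 against 0.177 to 0.906 over 4) were low in both groups, and Lum and Sox10 had no count in any library. The endothelial and immune lists each had 1 gene higher and 1 lower: Tek fell from a mean of 8.88 to 0.317 CPM and Tie1 rose from 0.0429 to 1.65 CPM, and Cd68 fell from 28.5 to 7.88 CPM and Csf1r rose from 0.191 to 1.49 CPM. Of the enteric nerve list Ret fell from 7.36 to 3.17 CPM, and no mesenchymal or erythroid marker passed the filter on low counts. Xist was at 676 to 1049 CPM in the controls and at 0.412 to 2.76 CPM in YAP5SA, while the Y-linked gene Eif2s3y was at 0.108 CPM at most in the controls and at 93.3 to 110.7 CPM in YAP5SA. Sex and genotype therefore cannot be told apart in any comparison here, and Pola1 is the only X-linked gene of the 56. Counts mapped to Yap1 were at 160.0 ± 7.22 CPM (SD, n = 4) in the controls and 153.3 ± 4.16 in YAP5SA (adjusted p = 0.339), and the labels do not say whether transcripts of the transgene would be counted there. In bulk RNA, a change in the share of cells in S phase and a change in RNA per cell cannot be told apart.

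Among the factors that mark origins and load the helicase, 3 of 7 rose (Cdt1, Orc6 and Gmnn), 2 fell (Orc3 and Orc2) and 2 did not pass (Cdc6 and Orc1). The counts of this and the following roles stand beside 23.6% of all tested genes called higher and 25.5% called lower. Each role holds few genes, and its counts were not tested against these shares. Cdt1, which brings MCM2-7 to origins, was at 15.8, 15.3, 15.4 and 13.3 CPM in controls 1 to 4 and at 22.3, 24.2, 24.8 and 20.2 CPM in YAP5SA 1 to 4. Every YAP5SA library lay above every control, and the log2 fold change was 0.61 ± 0.09 (SE, n = 4 and 4, adjusted p = 3.18e-05). Gmnn encodes geminin, which binds Cdt1 and blocks a further round of licensing in the same cycle. It was at 32.1, 33.5, 40.5 and 28.6 CPM in the controls and at 46.5, 44.6, 44.0 and 45.7 CPM in YAP5SA, again with no overlap (log2 fold change 0.42 ± 0.09, SE, adjusted p = 0.000631). The activator of loading and its inhibitor were thus both higher. Their ratio per library did not separate the groups, with a mean log2 Cdt1/Gmnn of -1.14 ± 0.16 (SD, n = 4) in the controls and -0.97 ± 0.16 in YAP5SA (exact permutation p = 0.229, two-sided).

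Subunits of the origin recognition complex did not move together. Orc4 and Orc5, outside the list, did not pass (log2 fold change -0.08 and -0.09, adjusted p = 0.439 and 0.39). Orc6, the smallest subunit, was at 43.1, 46.7, 45.8 and 35.2 CPM in the controls and at 58.3, 62.2, 58.7 and 62.0 CPM in YAP5SA, a log2 fold change of 0.49 ± 0.08 (SE, adjusted p = 4.38e-05). Orc3 was at 62.4, 60.6, 74.1 and 54.4 CPM in the controls and at 52.4, 50.5, 49.2 and 54.4 CPM in YAP5SA, and it fell by 0.29 on the log2 scale (SE 0.08, adjusted p = 0.0065). Orc2 was at 58.8, 65.2, 55.3 and 62.0 CPM in the controls and at 54.6, 51.2, 46.5 and 56.5 CPM in YAP5SA, and it fell by 0.21 on the log2 scale (SE 0.07, adjusted p = 0.0251). The groups were separate for Orc6, while for Orc3 and Orc2 the highest YAP5SA library reached into the range of the controls. The call of Orc2 was lost without control 2, YAP5SA 2 or YAP5SA 3 (adjusted p = 0.0585 to 0.0906) and with scaling by library size alone (log2 fold change -0.18, adjusted p = 0.0536). Orc1, the ATPase subunit whose level is known to follow the cell cycle, was at 8.65, 11.6, 11.9 and 11.8 CPM in the controls and at 12.6, 11.3, 8.69 and 10.7 CPM in YAP5SA (95% interval of the log2 fold change -0.30 to 0.26, adjusted p = 0.912). Cdc6, the ATPase that works with Cdt1 in loading, was at 33.3, 32.6, 36.5 and 27.1 CPM in the controls and at 35.7, 37.3, 32.6 and 37.5 CPM in YAP5SA. Its 95% interval ran from -0.04 to 0.32 on the log2 scale (adjusted p = 0.197). The per-library ratios Orc1/Orc2 and Cdc6/Orc1 overlapped between the groups (exact permutation p = 0.171 and 0.4).

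The 6 subunits of the MCM2-7 ring act in equal number in the complex, yet only Mcm2 and Mcm5 rose, and Mcm3, Mcm4, Mcm6 and Mcm7 did not pass the test. Mcm2 was at 75.2, 81.8, 79.0 and 79.9 CPM in the controls and at 101, 94.7, 89.3 and 92.6 CPM in YAP5SA, a log2 fold change of 0.26 ± 0.06 (SE, adjusted p = 0.00102). Mcm5 was at 88.7, 87.5, 94.1 and 82.9 CPM in the controls and at 99.7, 104, 104 and 96.6 CPM in YAP5SA (0.19 ± 0.06, SE, adjusted p = 0.00805). In both genes the lowest YAP5SA library lay above the highest control. Mcm3 was at 121, 131, 127 and 123 CPM in the controls and at 131, 132, 127 and 128 CPM in YAP5SA. Mcm4 was at 115, 120.3, 118 and 127 CPM in the controls and at 123, 121, 120.1 and 124 CPM in YAP5SA. All YAP5SA libraries lay within the range of the controls for Mcm4. For Mcm3 the groups overlapped in part, with YAP5SA 1 and 2 (131.4 and 132.4 CPM) above the highest control (130.9 CPM). Mcm6 was at 200.2, 209, 201 and 189.6 CPM in the controls and at 198, 209, 201 and 203 CPM in YAP5SA. Mcm7 was at 142, 145, 141 and 127 CPM in the controls and at 148, 149, 137 and 145 CPM in YAP5SA. The 95% intervals of these 4 genes all lay between -0.08 and 0.18 on the log2 scale, with adjusted p between 0.36 and 0.756. Exons of Mcm7 overlap those of Ap4m1 and Cops6 in the annotation, so without strand in the counting its reads may not all be its own. On a per-library basis, log2 Mcm2/Mcm3 was -0.67 ± 0.03 (SD, n = 4) in the controls and -0.46 ± 0.05 in YAP5SA, and log2 Mcm5/Mcm3 was -0.51 ± 0.08 and -0.36 ± 0.05. Both ratios were higher in every YAP5SA library (exact permutation p = 0.0286, two-sided, the smallest that 4 against 4 allows), but over the 13 ratios tested the adjusted p was 0.0743.

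The other MCM genes rose slightly. Mcm8, a helicase known for its part in recombination, was at 10.9, 14.1, 14.8 and 11.5 CPM in the controls and at 15.2, 15, 16.1 and 16.6 CPM in YAP5SA, a log2 fold change of 0.29 ± 0.11 (SE, adjusted p = 0.0388). Mcm10, which helps start the helicase, was at 29.6, 29.9, 31.8 and 25.9 CPM in the controls and at 33.1, 34.4, 34.2 and 33.8 CPM in YAP5SA (0.21 ± 0.07, SE, adjusted p = 0.0303). Neither overlapped between the groups. The call of Mcm8 was lost without control 1, control 4 or any of the YAP5SA libraries 1 to 4 (adjusted p = 0.0598 to 0.151) and with DESeq2 (adjusted p = 0.0612). That of Mcm10 was lost without the same libraries (adjusted p = 0.051 to 0.0831).

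Among the genes that activate the helicase, Cdc45 and Cdc7 rose and the 4 GINS genes did not pass. Cdc45, which rides with MCM2-7 and GINS as the active helicase, was at 17.5, 20.3, 19.2 and 13.0 CPM in the controls and at 20.4, 23.2, 23.5 and 21.4 CPM in YAP5SA, a log2 fold change of 0.33 ± 0.11 (SE, adjusted p = 0.0243). Cdc7, the kinase that phosphorylates MCM subunits, was at 9.35, 12.4, 11.5 and 11.1 CPM in the controls and at 14.1, 12.3, 13.3 and 14.4 CPM in YAP5SA (0.28 ± 0.11, SE, adjusted p = 0.0459). The groups of Cdc7 overlapped by a narrow margin, and those of Cdc45 were separate. The call of Cdc7 was lost without any library other than control 2 or YAP5SA 2 (adjusted p = 0.0573 to 0.175) and in 4 other alternatives: DESeq2 (adjusted p = 0.0773), no filter on low counts (0.0524), a filter at 1 CPM in 4 libraries (0.052) and the replicate block (0.0734). The call of Cdc45 was lost without control 1, control 4, YAP5SA 2 or YAP5SA 3 (adjusted p = 0.0503 to 0.0769). Within GINS the values went both ways. Gins2 was at 16.5, 15.2, 16.8 and 11.6 CPM in the controls and at 13.0, 13.0, 11.7 and 12.1 CPM in YAP5SA, a log2 fold change of -0.28 ± 0.12 (SE, adjusted p = 0.0567). Gins3 was at 7.33, 8.77, 10.8 and 6.90 CPM in the controls and at 10.6, 9.61, 9.27 and 10.3 CPM in YAP5SA (0.22 ± 0.14, SE, adjusted p = 0.203). Control 4 was the lowest control for both genes. Without control 4 Gins2 passed as lower (adjusted p = 0.0041), and without control 3 Gins3 passed as higher (adjusted p = 0.0385). Log2 Gins2/Gins3 was 0.80 ± 0.23 (SD, n = 4) in the controls and 0.31 ± 0.08 in YAP5SA, with no overlap (exact permutation p = 0.0286, adjusted p = 0.0743 over 13 ratios). Gins4 had a log2 fold change of -0.17 (95% interval -0.32 to -0.02, adjusted p = 0.0589), and Gins1 of 0.09 (-0.20 to 0.38, adjusted p = 0.623). Gins4 passed as lower without YAP5SA 1 (adjusted p = 0.0326) and with a filter at 1 CPM in 4 libraries (adjusted p = 0.0472).

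DNA polymerases and primase held both a broad rise and the largest fall of the list. Of these 9 genes, 6 rose (Pole2, Pold1, Pole, Prim1, Prim2 and Pola2), Pold3 fell, and Pola1 and Pold2 did not pass. Pold3 encodes an accessory subunit of polymerase delta that binds PCNA and is known for its role in break-induced replication. It was at 60.2, 49.3, 63.9 and 50.9 CPM in the controls and at 28.8, 27.1, 34.5 and 32.0 CPM in YAP5SA, a fall by 0.88 on the log2 scale (SE 0.09, adjusted p = 5.32e-07). The highest YAP5SA library stood well below the lowest control. The other listed subunits of the same enzyme differed from this: Pold1, the catalytic subunit, was at 19.3, 17.6, 19.8 and 17.2 CPM in the controls and at 22.3, 24.9, 24.5 and 22.0 CPM in YAP5SA (0.34 ± 0.09, SE, adjusted p = 0.0034), and Pold2 had a log2 fold change of 0.06 (95% interval -0.13 to 0.25, adjusted p = 0.622). Pold4, a subunit outside the list, did not pass (0.20, 95% interval -0.04 to 0.45, adjusted p = 0.165). The intervals of Pold1 and Pold2 did not reach that of Pold3, which ran from -1.07 to -0.68, though the difference between subunits was not tested.

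The leading-strand polymerase epsilon was higher in both listed subunits. Its subunits Pole3 and Pole4, outside the list, did not pass (log2 fold change 0.11 and 0.065, adjusted p = 0.162 and 0.426). Pole, the catalytic subunit, was at 33.4, 35.1, 37.0 and 36.9 CPM in the controls and at 53.9, 40.3, 42.6 and 42.3 CPM in YAP5SA, a log2 fold change of 0.33 ± 0.09 (SE, adjusted p = 0.00395), and YAP5SA 1 stood apart at the top. Pole2 was at 22.0, 21.5, 21.9 and 19.1 CPM in the controls and at 30.9, 28.4, 26.3 and 27.1 CPM in YAP5SA (0.42 ± 0.08, SE, adjusted p = 0.000414). In the primase complex, which lays the primers that the polymerases extend, Prim1 was at 37.1, 39.8, 38.8 and 32.0 CPM in the controls and at 49.5, 44.2, 44.2 and 46.3 CPM in YAP5SA (0.31 ± 0.08, SE, adjusted p = 0.00217). Prim2 and Pola2 rose by 0.29 and 0.26 on the log2 scale, the latter not without control 1 (adjusted p = 0.059) or YAP5SA 3 (adjusted p = 0.0856). Pola1, the catalytic subunit that shares this complex, was at 60.6, 57.7, 58.4 and 55.6 CPM in the controls and at 59.9, 64.7, 63.5 and 61.5 CPM in YAP5SA (95% interval -0.02 to 0.23, adjusted p = 0.155). The per-library ratios Pola1/Prim1 and Pold1/Pole had exact permutation p of 0.0571 and 0.914.

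At the sliding clamp and on the lagging strand, 6 of 11 genes rose (Lig1, Pcna, Rfc2, Rfc5, Rpa1 and Rfc1) and 5 did not pass (Rfc3, Rfc4, Rpa2, Rpa3 and Fen1). Lig1 encodes the ligase that seals Okazaki fragments. It was at 85.9, 79.9, 83.6 and 78.5 CPM in the controls and at 108, 112, 106 and 106 CPM in YAP5SA, with no overlap (log2 fold change 0.39 ± 0.05, SE, adjusted p = 6.69e-06). Pcna, the clamp that holds the polymerases on DNA, was at 141, 155, 146 and 121 CPM in the controls and at 184, 183, 168 and 184 CPM in YAP5SA (0.35 ± 0.07, SE, adjusted p = 0.000257). All 4 YAP5SA libraries lay above the highest control for both genes. Fen1, the nuclease that trims the flaps before Lig1 seals them, was at 8.40, 9.48, 7.58 and 7.20 CPM in the controls and at 6.93, 8.28, 7.14 and 8.89 CPM in YAP5SA, with a 95% interval of -0.35 to 0.22 on the log2 scale (adjusted p = 0.716). Fen1 and Tmem258 share exons in the annotation, and its reads may be split accordingly.

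The clamp loader, replication factor C, opens PCNA and places it on primed DNA. Its large subunit Rfc1 was at 110.3, 112, 110.3 and 105 CPM in the controls and at 121, 124, 126 and 120.4 CPM in YAP5SA, a log2 fold change of 0.17 ± 0.05 (SE, adjusted p = 0.0088). Rfc2 and Rfc5 rose by 0.31 and 0.28 on the log2 scale. Rfc4 was at 25.4, 26.3, 26.1 and 22.3 CPM in the controls and at 28, 26.9, 24.6 and 29.3 CPM in YAP5SA (95% interval -0.06 to 0.29, adjusted p = 0.257), and Rfc3 had an interval of -0.09 to 0.39 (adjusted p = 0.309). Log2 Rfc4/Rfc1 did not separate the groups (exact permutation p = 0.571). RPA coats the single strands behind the helicase. Its large subunit Rpa1 rose by 0.28 on the log2 scale (adjusted p = 0.000133), while Rpa2 and Rpa3 had intervals of -0.01 to 0.40 and -0.04 to 0.43. Rpa2 passed as higher with no filter on low counts (adjusted p = 0.0472).

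All 5 genes of nucleotide supply rose. Tk1, the thymidine kinase of the salvage pathway, was at 35.6, 33.8, 38 and 29.2 CPM in the controls and at 53.7, 52.0, 53.6 and 49.6 CPM in YAP5SA, a log2 fold change of 0.61 ± 0.08 (SE, adjusted p = 3.19e-06). Dut, which removes dUTP and supplies dUMP, was at 47.4, 49.8, 54.3 and 40.7 CPM in the controls and at 67.1, 67.0, 66.4 and 69.9 CPM in YAP5SA (0.49 ± 0.07, SE, adjusted p = 2.88e-05). In each of the 5 genes every YAP5SA library was above every control. Ribonucleotide reductase makes deoxynucleotides from ribonucleotides. Its large subunit Rrm1 was at 318, 328, 322 and 283 CPM in the controls and at 427, 420.1, 407 and 416 CPM in YAP5SA (0.42 ± 0.05, SE, adjusted p = 3.10e-06), and the small subunit Rrm2 was at 126, 132, 123 and 118 CPM against 159.7, 169, 156 and 164 CPM (0.38 ± 0.05, SE, adjusted p = 9.24e-06). The ratio of the subunits overlapped between the groups, with log2 Rrm2/Rrm1 at -1.32 ± 0.05 (SD, n = 4) in the controls and -1.36 ± 0.05 in YAP5SA (exact permutation p = 0.257). Tyms, the thymidylate synthase, was at 67.0, 70.1, 75.4 and 60.6 CPM in the controls and at 84.9, 89.4, 80.3 and 79.6 CPM in YAP5SA (0.29 ± 0.07, SE, adjusted p = 0.00187). Exons of Tk1 and Afmid overlap in the annotation.

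**Figure D3:**
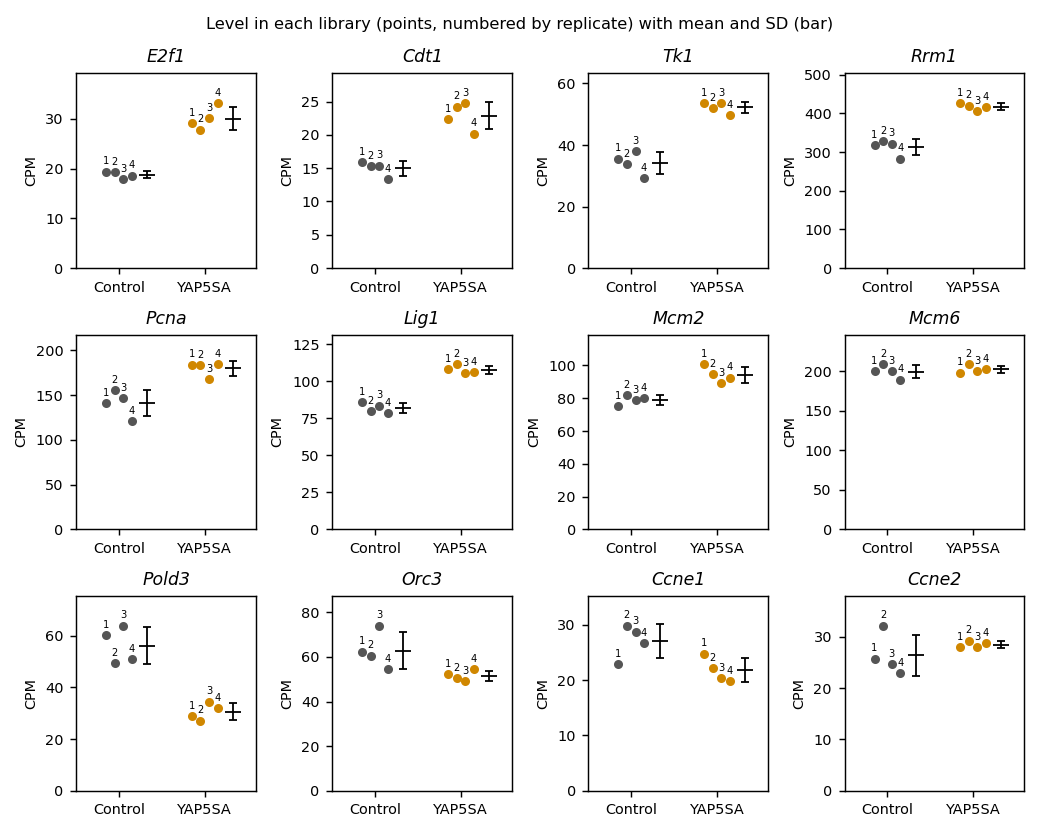
CPM in each library (y axes, starting at 0; grey points Control, orange points YAP5SA, numbered by replicate) for 12 of the genes, with the mean and SD of each group as a bar. In the panels of E2f1, Cdt1, Tk1, Rrm1, Pcna, Lig1 and Mcm2 the YAP5SA points lie above all control points, in the Pold3 panel they lie below, and the Mcm6 panel shows the groups overlapping.

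Of the 3 chromatin factors, 2 rose. Uhrf1, which brings the maintenance methyltransferase to newly copied DNA, was at 78.1, 74.7, 82.0 and 74.0 CPM in the controls and at 100.5, 101, 93.0 and 89.6 CPM in YAP5SA, a log2 fold change of 0.31 ± 0.06 (SE, adjusted p = 0.000254). Chaf1a, the large subunit of the histone chaperone CAF-1, was at 47.4, 46.8, 43.1 and 45.7 CPM in the controls and at 57.0, 60.1, 53.9 and 58.2 CPM in YAP5SA (0.33 ± 0.06, SE, adjusted p = 0.000298). Both were separate between the groups, and Chaf1b had a log2 fold change of 0.19 (adjusted p = 0.0971).

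Of the 7 cyclin E and E2F genes, E2f1, E2f7 and E2f8 rose, Ccne1 fell, and E2f2, E2f3 and Ccne2 did not pass. E2f1, an activating E2F, was at 19.4, 19.3, 17.9 and 18.6 CPM in the controls and at 29.1, 27.8, 30.1 and 33.2 CPM in YAP5SA, a log2 fold change of 0.68 ± 0.08 (SE, adjusted p = 1.68e-06). The other activators did not pass the test: E2f3 was at 39.1, 41.4, 38.9 and 42.5 CPM in the controls and at 39.3, 36.7, 35.7 and 37.6 CPM in YAP5SA (95% interval -0.26 to 0.02, adjusted p = 0.158), and E2f2 was at 3.03, 2.92, 2.44 and 2.92 CPM in the controls and at 3.75, 3.20, 2.38 and 3.18 CPM in YAP5SA (95% interval -0.27 to 0.57, adjusted p = 0.568). Log2 E2f1/E2f3 was -1.09 ± 0.07 (SD, n = 4) in the controls and -0.31 ± 0.12 in YAP5SA, with no overlap (exact permutation p = 0.0286, adjusted p = 0.0743 over 13 ratios). The atypical E2Fs repress E2F targets late in S phase. E2f8 was at 21.9, 25.4, 25.8 and 27.1 CPM in the controls and at 35.1, 35.6, 39.8 and 34.8 CPM in YAP5SA (0.54 ± 0.08, SE, adjusted p = 2.68e-05), and E2f7 was at 12.8, 9.64, 11.9 and 13.1 CPM and at 14, 14.8, 13.7 and 15.6 CPM (0.30 ± 0.11, SE, adjusted p = 0.0300). An activator and both repressors were thus higher, with all YAP5SA libraries above all controls. The call of E2f7 was lost without control 2, control 3, YAP5SA 2 or YAP5SA 4 (adjusted p = 0.0558 to 0.114). The per-library ratio E2f7/E2f8 overlapped between the groups (exact permutation p = 0.2).

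Cyclin E drives Cdk2 at the entry to S phase. Ccne1 was at 22.9, 29.8, 28.8 and 26.7 CPM in the controls and at 24.8, 22.1, 20.4 and 19.9 CPM in YAP5SA, and it fell by 0.32 on the log2 scale (SE 0.10, adjusted p = 0.0121), with control 1 inside the range of YAP5SA. Ccne2 was at 25.8, 32.2, 24.7 and 22.9 CPM in the controls and at 28, 29.3, 28 and 28.7 CPM in YAP5SA (95% interval -0.09 to 0.31, adjusted p = 0.372), and it passed as higher without control 2 (adjusted p = 0.0394). Log2 Ccne1/Ccne2 was 0.04 ± 0.20 (SD, n = 4) in the controls and -0.38 ± 0.15 in YAP5SA, lower in every YAP5SA library (exact permutation p = 0.0286, adjusted p = 0.0743). In all, 5 of the 13 ratios reached the smallest p that 4 against 4 allows and none passed after adjustment. With that smallest p, a fully separated ratio could not pass the adjustment over 13 ratios on its own. The lack of a pass therefore does not show that these ratios were equal between the groups.

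**Figure D4:**
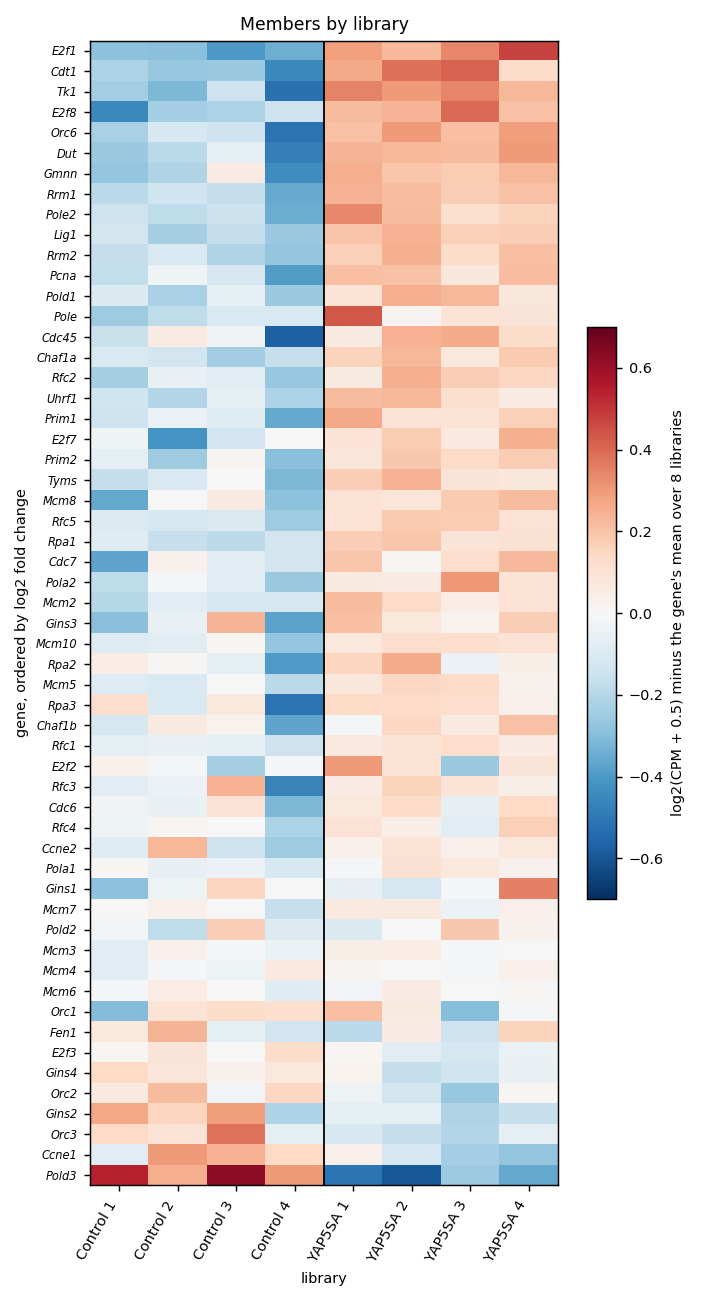
Log2(CPM + 0.5) of each gene minus its mean over the 8 libraries (colour, red above and blue below the mean), with genes as rows ordered by log2 fold change and libraries as columns. Most upper rows are blue in the controls and red in YAP5SA, the column of control 4 is the bluest of the controls, and Pold3 at the bottom shows the opposite pattern.

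Levels between genes can be compared only per transcript length, here as CPM per kilobase of the longest protein-coding transcript. On this scale Pcna (92.9 in the controls and 119 in YAP5SA), Rrm1 (78.3 and 104) and Rrm2 (56.9 and 74.0) were the most abundant of the 56 genes. The MCM2-7 genes lay between 23.4 (Mcm2) and 46.8 (Mcm7) in the controls. E2f2 was the least abundant at 0.597, and E2f1 was at 6.82 in the controls and 10.9 in YAP5SA.

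Genes around the core list were counted from 4 further lists. Beside these counts, 23.6% of all tested genes were called higher, 25.5% lower and 49.1% in either direction. Of 40 other replication genes, 16 rose, 1 fell and 23 did not pass, with a median log2 fold change of 0.15. Ticrr, which helps Cdc45 load, rose by 0.60 ± 0.09 (SE, adjusted p = 1.74e-05), and lay at 18.5 to 23.9 CPM in the controls and at 29.8 to 32.8 CPM in YAP5SA. Samhd1, which degrades deoxynucleotides, rose by 0.58 ± 0.09 (SE, adjusted p = 6.00e-05), and the smallest called rise was that of Dbf4, the activator of Cdc7, at 0.19 (adjusted p = 0.0205). Rrm2b, the p53-inducible small subunit of ribonucleotide reductase, was the gene that fell, with 38.1 to 47.5 CPM in the controls and 32.2 to 34.3 CPM in YAP5SA, a log2 fold change of -0.32 ± 0.08 (SE, adjusted p = 0.00243), while Rrm2 rose.

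Regulators of the G1/S step went both ways, with 7 of 21 higher, 6 lower, 8 not passing and a median of 0.04. All tested genes were also split, with 23.6% called higher, 25.5% lower and a median of 0.00. A split in both directions is thus not particular to this list. The Cdk inhibitors moved in opposite directions: Cdkn1b (p27) was at 45.2 to 49.3 CPM in the controls and 76.9 to 82.8 CPM in YAP5SA (0.75 ± 0.06, SE, adjusted p = 4.84e-09), Cdkn1c (p57) rose by 0.73 ± 0.13 (SE, adjusted p = 0.000119), and Cdkn1a (p21) was at 279 to 309.7 CPM in the controls and 147 to 170.4 CPM in YAP5SA, a log2 fold change of -0.92 ± 0.06 (SE, adjusted p = 2.27e-10). Ccnd2, a D cyclin of G1, fell by 0.60 on the log2 scale (SE 0.09, adjusted p = 0.00012), with 3115 to 4439 CPM in the controls and 2249 to 2560 CPM in YAP5SA.

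Most genes of G2 and mitosis rose, with 27 of 30 higher, 1 lower and 2 not passing, and a median log2 fold change of 0.50 against 0.24 for the 56 replication genes. Ccnb2, a mitotic cyclin, was at 49.6 to 66.8 CPM in the controls and 114 to 125 CPM in YAP5SA (0.97 ± 0.08, SE, adjusted p = 7.24e-09), and Cenpa, the centromeric histone, rose by 0.81 ± 0.08 (SE, adjusted p = 1.48e-07). The smallest called rise was 0.24 for Plk1 (adjusted p = 0.00266), and Mybl2 fell by 0.28 (SE 0.08, adjusted p = 0.00681). Summed over the 30 genes, the controls held 2698 to 3117 CPM, with control 4 again the lowest, and YAP5SA 3995 to 4232 CPM. The difference between the lists was not tested. Of 65 replication-dependent histone genes, 17 passed the filter on low counts: 2 rose (H2bc21, log2 fold change 1.24 ± 0.11, SE, and H4c12, 1.45 ± 0.37), H4c8 fell by 0.82 (SE 0.28), and 14 did not pass, with a median of 0.00. Levels of H4c12 ran from 0.316 to 2.25 CPM and those of H4c8 from 0.772 to 1.77 CPM over the 8 libraries. Histone genes exist in near-identical copies and their transcripts are known to lack a poly(A) tail, so these values are uncertain.

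**Figure D5:**
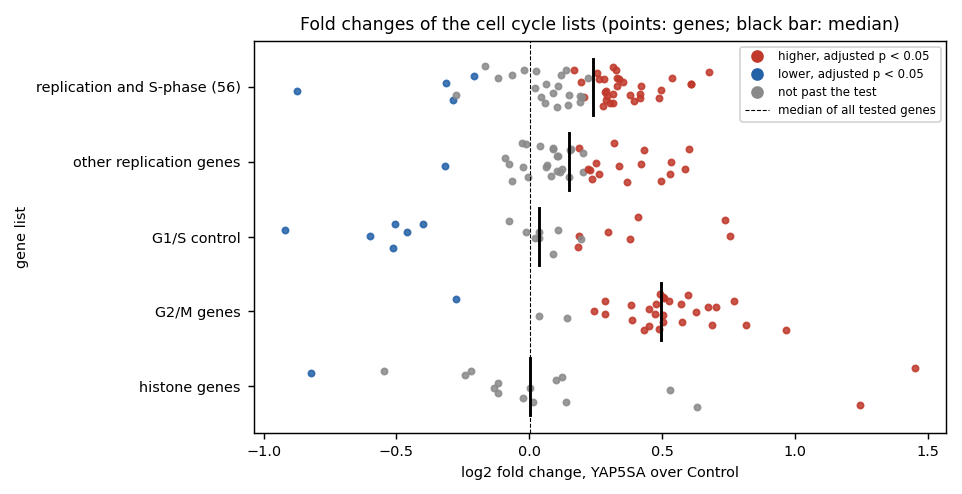
Log2 fold change of YAP5SA over Control (x axis) for every tested gene of the 5 lists (y axis), coloured by call (red higher, blue lower, grey not past the test), with the median of each list as a black bar and that of all tested genes as a dashed line. The median bar is at 0.24 for the replication and S-phase genes, 0.50 for the G2/M genes and 0.04 for G1/S control.

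Of the 56 genes, 19 have an exon that overlaps an exon of another gene in the GENCODE annotation, and 13 of these are among the 35 called. The 13 are Orc2, Orc6, Cdc45, Pole, Pole2, Rfc2, Rfc5, Rpa1, Lig1, Tk1, Chaf1a, E2f7 and E2f8. How reads in their shared exons were counted is not known. The other 22 called genes share no exon.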

How the data were processed

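The values used are raw read counts per gene as the authors deposited them, whole numbers with no normalization. Reads were 150 bp paired-end per the labels' protocols. The submitters' processing notes name cutadapt, HISAT2 2.0.1, HTSeq 0.6.1 and the build mm9. The annotation and the counting options were not given in the sources used here, and reads of overlapping genes cannot be told apart. From the 56691 rows, 2639 rows without a gene name (0.190% to 0.221% of a library's counts) were left out and 959 rows sharing 77 symbols were summed. Genes were kept by filterByExpr (minimum count 10, minimum total 15), scaled by TMM and tested in R 4.3.3 with the quasi-likelihood test of edgeR 4.0.16 (robust, two-sided, genotype only), with Benjamini-Hochberg adjustment over the 14058 genes and calls at 0.05. The common biological coefficient of variation was 7.97%. SE was derived from the F statistic as |log2 fold change|/√F. The scripts were tested on simulated data. Per-library ratios used CPM with a pseudocount of 0.5 and exact permutation over the 70 splits. Intervals cover the spread between libraries only.

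The genes and lists were chosen with earlier results of these data known. The genes given library by library are, per role, the called genes with the highest and lowest log2 fold change and the smallest adjusted p, those called against the main direction, Mcm2 to Mcm7, the cyclin E and E2F genes and the genes of the ratios. Orc6, Pcna, Dut and Fen1 were added after their values were seen. For the other lists, the 2 highest and 2 lowest called are given by log2 fold change, some with the range of each group. Orc4, Orc5, Pold4, Pole3 and Pole4 of those lists are given beside their complexes. Alternatives were DESeq2 1.42.0, other scalings and filters, a replicate block, a stricter threshold and leaving out each library. Promoter sequences are from RefSeq (GRCm38.p6), and lengths and exon overlaps from GENCODE M21; none of these was converted to mm9. Some marker genes are not reported here.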

Additional observations from a re-analysis of the deposited data

Results flagged for a closer look

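Among 112 groups of 4 libraries (56 genes in 2 genotypes), 7 held a library far from the other 3 by Dixon's test of the gap against the group's range. Chance alone gives about 1 in 20 groups. Control 1 was lowest for Orc1 at 8.65 CPM, and control 4 was lowest for Pole2 at 19.1 CPM. YAP5SA 3 was highest for Pola2 at 31.8 CPM and for E2f8 at 39.8 CPM, and lowest for Pcna at 168 CPM. YAP5SA 1 was highest for Pole at 53.9 CPM, and YAP5SA 4 was lowest for Rpa3 at 23.7 CPM.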

How the results depend on the processing

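In 15 alternatives at the 0.05 threshold, 26 to 31 of the 56 genes were called higher and 3 to 5 lower, and their median log2 fold change ran from 0.19 (without control 4) to 0.27 (library size alone). The call stayed the same in all 15 for 25 of the 31 higher genes (not Mcm8, Mcm10, Cdc7, Cdc45, Pola2 and E2f7), 3 of the 4 lower genes (not Orc2) and 16 of the 21 others (not Gins2, Gins3, Gins4, Rpa2 and Ccne2). At an adjusted p under 0.01, 25 were higher and 2 lower. With library size alone, Orc1 had a log2 fold change of 0.0084. Among genes that were not called, leaving out 1 library moved the log2 fold change across 0 for Orc1 (-0.13 to 0.065), Mcm4 (-0.0057 to 0.054), Mcm6 (-0.0012 to 0.038), Gins1 (-0.037 to 0.16), Fen1 (-0.14 to 0.012) and Pold2 (-0.00049 to 0.13). With the replicate block, 30 genes were higher and 4 lower. Same-numbered libraries correlated at -0.099 to 0.096 and 1 of 8 was closest to its own number. In the main test the numbers only name libraries. These correlations cannot settle whether same-numbered libraries share an embryo or a batch. Histone genes called lower were 2 with DESeq2 and with no filter, 0 to 2 when 1 library was left out and 0 at an adjusted p under 0.01; the cause was not tested.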
